A study of Mus musculus with 12 samples.

Results

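The 43 genes described here encode the machinery of DNA replication: the MCM helicase, the origin recognition complex, licensing and activation factors, the replicative polymerases with primase, the sliding clamp and its loader, the single-strand binding protein RPA and the enzymes that finish Okazaki fragments. They were taken from a list of gene symbols, matched by Ensembl identifier to the deposited gene tables. All 43 were found among 36521 rows, and all 43 were tested in both comparisons. Mcm7 and Orc5 stood in rows that the authors' tables join with overlapping genes (Mir93 and Mir25 with Mcm7, Gm15421 with Orc5), so their values may hold reads of those genes.

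RNA was sequenced from V6.5 mouse embryonic stem cells in 3 groups of 4 libraries, labelled as biological replicates: Tet1kd, Tet2kd and parental. Tet1kd cells carried pSUPER-puro-Tet1shRNA and Tet2kd cells pSUPER-puro-Tet2shRNA, each a stable short hairpin vector, while parental cells carried neither. The TET enzymes oxidize the methyl group of 5-methylcytosine in DNA. Knockdown cells were selected with puromycin on SNL76/7-4 feeder cells and picked as clones. The number of clones per group is not stated in the labels. There was no control hairpin, so the knockdown, the vector, the selection and the clone cannot be told apart. All groups were grown with serum and LIF.

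Before S phase, the origin recognition complex together with Cdc6 and Cdt1 loads the MCM helicase onto DNA, and geminin holds Cdt1 in check. The Dbf4-Cdc7 kinase, Cdc45, the GINS complex and Mcm10 then turn the loaded helicase into a moving fork, where polymerase alpha with primase lays down primers, polymerases epsilon and delta extend them, and PCNA, RFC, RPA, Fen1 and Lig1 complete the strands. Mouse embryonic stem cells divide quickly, spend much of their cycle in S phase and express these genes at high levels. E2F transcription factors bind the promoters of many of them.

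Promoters with a match to letters known as E2F motifs are shown for 4 members, because such matches were more frequent among these genes than among all genes. Of the 4, Mcm5, Orc1 and Cdc6 were lower and Pola1 was higher in Tet1kd cells. Each is the 250 bases before the gene's start from RefSeq (build GRCm38.p6, written 5′ to 3′ on the gene's strand). Capitals mark matches to TTTCCCGC, TTTCGCGC, TTTGCCGC or TTTGGCGC on either strand, and where matches overlap the run of capitals covers them all.
Mcm5 (chr8:75109259-75109508, plus strand): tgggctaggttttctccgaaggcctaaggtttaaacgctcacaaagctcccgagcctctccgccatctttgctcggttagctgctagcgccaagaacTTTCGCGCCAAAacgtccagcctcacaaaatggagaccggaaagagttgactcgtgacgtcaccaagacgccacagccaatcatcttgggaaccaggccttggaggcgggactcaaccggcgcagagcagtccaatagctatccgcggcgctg
Orc1 (chr4:108579204-108579453, plus strand): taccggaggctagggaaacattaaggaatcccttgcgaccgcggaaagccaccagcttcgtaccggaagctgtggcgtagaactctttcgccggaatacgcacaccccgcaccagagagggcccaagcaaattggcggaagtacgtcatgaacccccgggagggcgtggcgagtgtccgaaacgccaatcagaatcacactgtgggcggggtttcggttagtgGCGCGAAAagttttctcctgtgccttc
Cdc6 (chr11:98907901-98908150, plus strand): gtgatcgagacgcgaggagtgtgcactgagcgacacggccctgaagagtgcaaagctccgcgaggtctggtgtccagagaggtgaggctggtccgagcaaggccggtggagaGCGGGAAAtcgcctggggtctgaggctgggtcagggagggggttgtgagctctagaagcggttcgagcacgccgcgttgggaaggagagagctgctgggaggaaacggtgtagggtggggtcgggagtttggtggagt
Pola1 (chrX:93632156-93632405, minus strand): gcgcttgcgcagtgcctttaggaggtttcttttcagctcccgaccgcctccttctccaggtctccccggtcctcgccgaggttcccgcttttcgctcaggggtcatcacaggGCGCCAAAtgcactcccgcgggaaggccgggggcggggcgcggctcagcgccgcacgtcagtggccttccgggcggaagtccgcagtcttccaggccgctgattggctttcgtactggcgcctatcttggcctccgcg
Windows were matched for 35 of the 43 members. A match was present in 9 of the 35 (25.7%), against 583 of 27025 genes with a window (2.16%). Mcm6, Mcm7, Orc3, Rfc3 and Gins3 also held a match. The 4 members shown all passed in Tet1kd cells, so they do not stand for all 9 with a match. Mcm6, which held the most matches (3), passed in neither direction, and nor did Orc3 and Gins3. Among the members with a window, a match was found in 5 of 16 that were lower in Tet1kd cells, 1 of 6 that were higher and 3 of 13 that passed in neither direction. Mcm2, the member with the greatest fold change, held no match in its window.

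Of the 43 replication genes, 17 were lower in Tet1kd than in parental cells, 6 were higher and 20 did not pass the threshold, an adjusted p of 0.05 in the authors' deposited test over all genes. The share of lower members was 39.5%, against 15.3% of all 23120 genes tested, and the share of higher members 14.0%, against 15.2%. These genes have high counts, at which more genes pass: among the 8723 genes with a mean normalized read count of at least 300, 25.2% were lower and 25.1% higher. The members' median log2 fold change was -0.05, beside -0.01 over those 8723 genes. In Tet2kd cells 1 member was lower (Fen1) and 1 higher (Rpa3), each 2.33% of the 43, beside 3.29% and 3.85% of 22949 genes tested. Among the 8405 genes with a mean of at least 300 in that comparison, 6.21% were lower and 6.42% higher. Both comparisons use the same 4 parental libraries. Fold changes, adjusted p-values and group means given without library values are those of the authors' deposited table, unless limma is named.

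**Figure D1:**
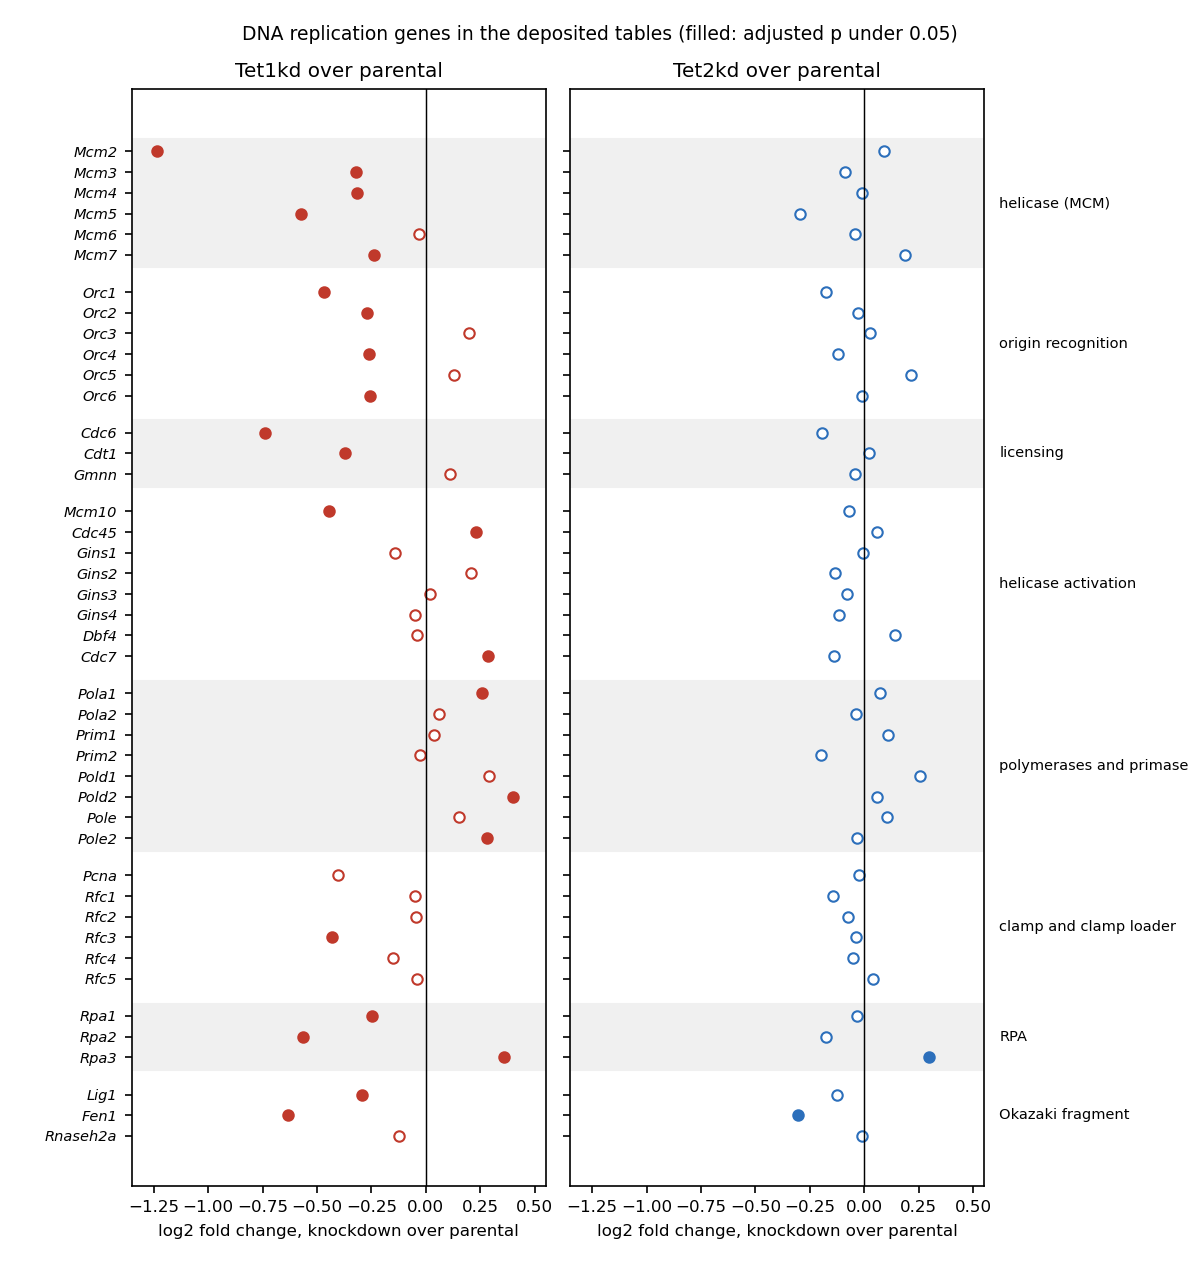
Log2 fold changes of the 43 replication genes from the authors' deposited tables, Tet1kd over parental on the left and Tet2kd over parental on the right, with 1 point per gene and genes grouped by role. Filled points had an adjusted p under 0.05 (23 genes in Tet1kd, 2 in Tet2kd); in Tet1kd the helicase, origin and licensing genes lie mostly left of 0 and the polymerase genes mostly right of it.

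The targeted genes followed the labels: Tet1 in Tet1kd cells was at 25.2% of its parental mean and Tet2 in Tet2kd cells at 50.9%. Estimated depth was 15.9 to 39.7 M reads in Tet1kd libraries, 14.4 to 31.1 M in Tet2kd libraries and 14.7 to 31.3 M in parental libraries. In each group 2 libraries were deeper (named a and b here) and 2 shallower (c and d), and some members differed between these classes within every group. All 8 embryonic stem cell markers were expressed in all groups, 4 of them higher in Tet1kd cells and 1 higher in Tet2kd cells. The 10 feeder fibroblast markers summed to 3079 to 3388 normalized reads in Tet1kd libraries, 6461 to 6881 in Tet2kd libraries and 5174 to 5589 in parental libraries, and none was at 0. Of these 10, 9 were lower in Tet1kd cells and 1 lower and 3 higher in Tet2kd cells; Dcn, a defining fibroblast gene, averaged 7.71 in Tet1kd cells and 243 in parental cells. The part of feeder RNA in the member results was not tested. In these bulk samples fewer cells of a type, or fewer cells in S phase, and less RNA per cell cannot be told apart.

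The MCM genes, whose products form the ring of the replicative helicase, were the role with the most lower members in Tet1kd cells. Of 6, 5 were lower, none was higher and Mcm6 did not pass (log2 fold change -0.03, deposited adjusted p = 0.961). Mcm2 (ENSMUSG00000002870) had normalized read counts of 4746, 5113, 5246 and 5689.8 in Tet1kd libraries a to d, against 11375, 11455, 12731 and 13314 in parental libraries. Every Tet1kd library was thus below every parental one, with means of 5199 ± 389.7 and 12219 ± 959 (SD, n = 4 each). The log2 fold change was -1.23 (SE 0.06 from limma), and the deposited adjusted p was 7.12e-38. Mcm2 was at 42.5% of its parental level in Tet1kd cells, and at 106.6% in Tet2kd cells. The latter did not pass in the first deposited test (deposited adjusted p = 0.607) and passed in the second (deposited adjusted p = 0.00709).

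Most of the genes around Mcm2 on chromosome 6 were lower as well. Of 81 other genes with a mean of at least 10 within 5 Mb of Mcm2 on either side, 54 were lower and 2 higher in Tet1kd cells. Their median log2 fold change was -0.89, with quartiles of -1.17 and -0.40. The fold change of 13 of them was as low as that of Mcm2 or lower. In Tet2kd cells 0 of the 81 were lower and 7 higher, with a median of 0.04. Of these genes, those directly on either side of Mcm2 did not pass: Podxl2 averaged 19.3 in Tet1kd cells and 24.7 in parental cells (log2 fold change -0.36, deposited adjusted p = 0.609), and Tpra1 222 in Tet1kd cells and 293 in parental cells (-0.40, deposited adjusted p = 0.4003). The next gene out on each side was lower. Plxna1, a semaphorin receptor, averaged 2329 in Tet1kd cells and 4219 in parental cells (log2 fold change -0.86, deposited adjusted p = 5.88e-22). Abtb1 averaged 397 in Tet1kd cells and 534 in parental cells (log2 fold change -0.43, deposited adjusted p = 0.0161). On the whole of chromosome 6, 43.5% of 478 genes with a mean of at least 100 were lower in Tet1kd cells (median -0.20). Around the other 42 members the median of the neighbours lay between -0.37 (Orc4) and 0.26 (Orc1) in Tet1kd cells. Whether Mcm2 was low as part of this region or through the knockdown itself was not tested.

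**Figure D2:**
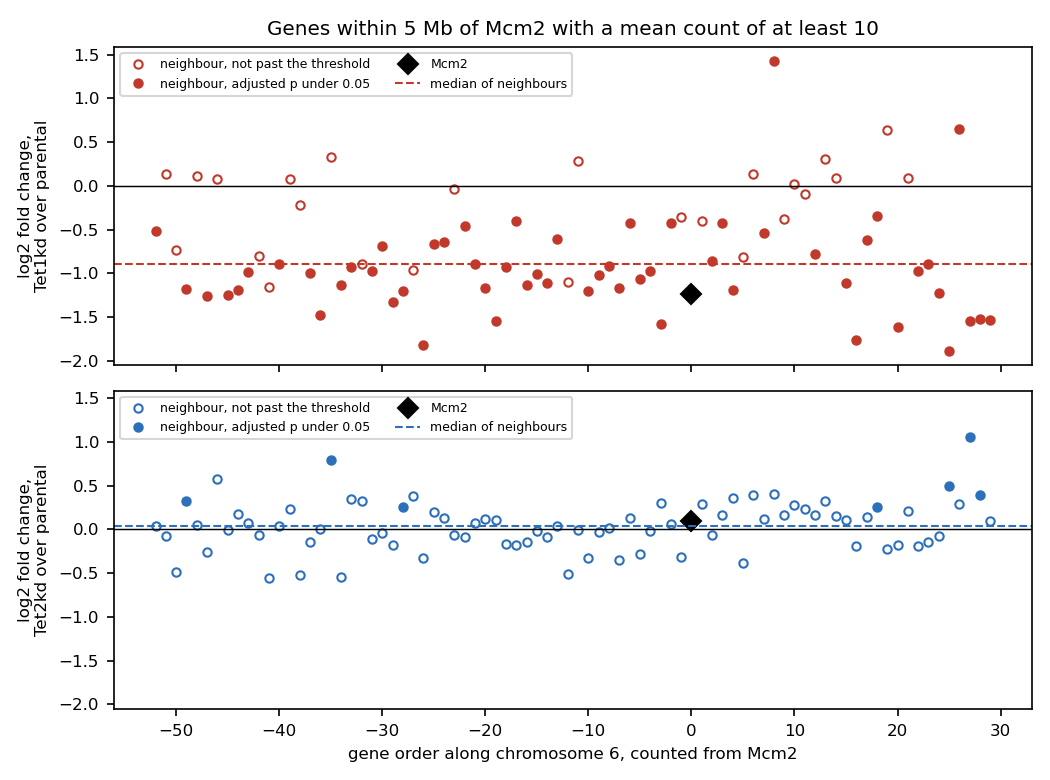
Log2 fold changes of the 81 genes within 5 Mb of Mcm2 (circles) and of Mcm2 (black diamond), by their order along chromosome 6, in Tet1kd over parental (top) and Tet2kd over parental (bottom). Filled circles had an adjusted p under 0.05 and dashed lines mark the neighbours' medians, -0.89 in Tet1kd and 0.04 in Tet2kd.

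Mcm5 averaged 12364 in Tet1kd cells and 18406 in parental cells, a log2 fold change of -0.57 (deposited adjusted p = 1.65e-05). For Mcm5, Mcm3, Mcm4 and Mcm6 the reads of single knockdown libraries could not be settled, because several sets of whole reads gave the deposited mean. The same held for Mcm2 and Mcm7 in Tet2kd and for Dbf4 and Pold2 in Tet1kd. Mcm3 averaged 11228 in Tet1kd cells and 14026 in parental cells (log2 fold change -0.32, deposited adjusted p = 0.00124). Mcm4 averaged 11859 in Tet1kd cells and 14751 in parental cells (log2 fold change -0.31, deposited adjusted p = 0.000519). The fold changes of these subunits were all closer to 0 than that of Mcm2. The joined row of Mcm7 had 5997, 5878, 5309 and 5329.7 normalized reads in Tet1kd libraries, against 6869, 6891, 6469 and 6295 in parental libraries, with no overlap (log2 fold change -0.24, deposited adjusted p = 0.0218). In Tet2kd cells 0 of the 6 MCM genes passed in the first deposited test, with log2 fold changes between -0.29 (Mcm5, deposited adjusted p = 0.149) and 0.19 (Mcm7, deposited adjusted p = 0.132). In the second deposited test Mcm5 and Mcm3 passed as lower (deposited adjusted p = 6.97e-11 and 0.011). Mcm7 and Mcm2 passed as higher (deposited adjusted p = 9.86e-08 and 0.00709), and Mcm4 and Mcm6 did not pass.

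The origin recognition complex marks the sites where replication begins. Of its 6 subunit genes 4 were lower in Tet1kd cells (Orc1, Orc2, Orc4 and Orc6) and Orc3 and Orc5 did not pass. Orc1, the subunit whose level changes most with the cell cycle in mammals, had 2673, 2495, 2761 and 2452 normalized reads in Tet1kd libraries, 3162, 3253, 3294 and 3007 in Tet2kd libraries and 3535, 3646, 3638 and 3540.3 in parental libraries. The groups did not overlap, and Tet2kd lay between the other two. The log2 fold change of Orc1 was -0.47 in Tet1kd (deposited adjusted p = 8.62e-07) and -0.18 in Tet2kd, which did not pass (deposited adjusted p = 0.237). By limma, Orc1 was called lower in Tet2kd (adjusted p = 0.0192). Orc2, Orc4 and Orc6 were lower in Tet1kd cells by similar amounts, with log2 fold changes of -0.27, -0.26 and -0.25 (deposited adjusted p = 0.007, 0.0208 and 0.0232). Orc2 had 3373, 3292, 2829 and 2969 normalized reads in Tet1kd libraries and 4091, 3882, 3492 and 3591 in parental libraries, and Orc6 had 1920.0, 1800.1, 2073 and 1894 in Tet1kd libraries and 2263, 2128, 2412 and 2368 in parental libraries. For both genes every Tet1kd library was below every parental one. Orc3 had a log2 fold change of 0.20 (deposited adjusted p = 0.095) and the joined row of Orc5 0.13 (deposited adjusted p = 0.362).

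Both loading factors of the helicase were lower in Tet1kd cells. Cdc6, an ATPase that joins the origin recognition complex, had 1517, 1419.6, 1443 and 1324 normalized reads in Tet1kd libraries, 2066, 2138, 2043 and 2073 in Tet2kd libraries and 2372, 2541, 2371 and 2245 in parental libraries. All 4 Tet1kd libraries lay below all others, and all Tet2kd libraries below all parental ones. The means were 1426 ± 79.5, 2079.9 ± 40.7 and 2382 ± 122 (SD, n = 4 each). Cdc6 thus had a log2 fold change of -0.74 in Tet1kd (SE 0.05 from limma, deposited adjusted p = 1.06e-14) and -0.20 in Tet2kd (deposited adjusted p = 0.138). By limma, Cdc6 was called lower in Tet2kd (adjusted p = 0.0194). Cdt1, which brings the helicase to the origin, had 3695, 3679, 4117 and 4088 normalized reads in Tet1kd libraries, 4865, 4748, 5565 and 5259.8 in Tet2kd libraries and 4838, 4779.8, 5206 and 5331 in parental libraries. All Tet1kd libraries lay below all others (log2 fold change -0.37, deposited adjusted p = 7.58e-05), while Tet2kd and parental libraries overlapped (0.02, deposited adjusted p = 1). Gmnn, encoding geminin, the inhibitor of Cdt1, had log2 fold changes of 0.11 in Tet1kd and -0.04 in Tet2kd, and neither passed (deposited adjusted p = 0.522 and 0.95).

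The 8 activation genes moved in both directions in Tet1kd cells: Mcm10 was lower, Cdc45 and Cdc7 were higher, and the 4 GINS genes and Dbf4 did not pass. Mcm10, a fork protein that binds the helicase, had 4869, 4961, 4960.4 and 4781 normalized reads in Tet1kd libraries, 6484, 6202, 6323 and 6349 in Tet2kd libraries and 6662, 6645, 6621 and 6718 in parental libraries. The Tet1kd libraries lay far below the other groups, whose own ranges were narrow (log2 fold change -0.45, deposited adjusted p = 1.14e-06). Cdc7, the catalytic subunit of the kinase that phosphorylates the loaded helicase, had 1669, 1772, 1533 and 1785 normalized reads in Tet1kd libraries, 1283, 1197, 1251 and 1306 in Tet2kd libraries and 1417, 1371, 1322 and 1439 in parental libraries. Here the Tet1kd libraries were above and the Tet2kd libraries below every parental library. For Cdc7 the log2 fold change was 0.28 in Tet1kd (deposited adjusted p = 0.00858) and -0.14 in Tet2kd, which did not pass (deposited adjusted p = 0.455). Cdc45, a subunit of the active helicase, had a log2 fold change of 0.23 in Tet1kd (deposited adjusted p = 0.0328), with 1798, 1883, 1936 and 2115 normalized reads in Tet1kd libraries and 1531, 1567, 1813 and 1672 in parental libraries. Its groups overlapped, since parental library c was above Tet1kd library a, but not within either depth class. The GINS genes and Dbf4 had log2 fold changes from -0.14 (Gins1) to 0.21 (Gins2) in Tet1kd.

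No polymerase or primase gene was lower in Tet1kd cells, and 3 of 8 were higher: Pola1, Pold2 and Pole2. Pola1, the catalytic subunit of polymerase alpha, had 4758, 4829, 4542 and 4291 normalized reads in Tet1kd libraries, against 4074, 3912, 3806 and 3636 in parental libraries, with no overlap (log2 fold change 0.26, deposited adjusted p = 0.011). Pole2, the second subunit of polymerase epsilon, had 1256, 1154, 1213 and 1191 normalized reads in Tet1kd libraries, 995, 1018, 999 and 857 in Tet2kd libraries and 1022, 1010.3, 933 and 1000.5 in parental libraries. All Tet1kd libraries were above all others (log2 fold change 0.28, deposited adjusted p = 0.0167). Pold2, a small subunit of polymerase delta, averaged 5699 in Tet1kd cells and 4320.1 in parental cells (log2 fold change 0.40, deposited adjusted p = 0.00729). Pold1, the catalytic subunit of polymerase delta, did not pass in the first deposited test (log2 fold change 0.29, deposited adjusted p = 0.34) and passed in the second (deposited adjusted p = 5.25e-06). Its normalized reads were 3035, 3252, 4125 and 4554 in Tet1kd libraries and 2393, 2687, 3575 and 3591 in parental libraries, higher in the shallower libraries c and d than in a and b in both groups. Within either class every Tet1kd library was above every parental one. limma without the depth class did not call Pold1 (adjusted p = 0.149), and with the depth class as a block called it higher (adjusted p = 1.17e-05). Pole, Pola2, Prim1 and Prim2 had log2 fold changes from -0.03 (Prim2) to 0.15 (Pole). In Tet2kd cells 0 of the 8 passed in the first deposited test, with values from -0.20 (Prim2) to 0.26 (Pold1). In the second, Prim2 passed as lower (deposited adjusted p = 0.0134). Pold1 and Pole passed there as higher (deposited adjusted p = 0.00719 and 0.0175).

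Of the clamp and clamp loader genes 1 of 6 was lower in Tet1kd cells and none was higher. That gene was Rfc3, a small subunit of the loader, with 1032, 882, 1130.2 and 1019.6 normalized reads in Tet1kd libraries, 1287, 1373, 1383 and 1302 in Tet2kd libraries and 1350.4, 1363, 1379.7 and 1388 in parental libraries. Tet1kd was below both other groups with no overlap (log2 fold change -0.43, deposited adjusted p = 3.09e-05). The other loader subunits had log2 fold changes from -0.15 (Rfc4) to -0.04 (Rfc5). Pcna, the clamp itself, had 2589.8, 2555, 1621 and 1758 normalized reads in Tet1kd libraries, 3300.5, 3291, 2253 and 2273 in Tet2kd libraries and 3379, 3497, 2129 and 2288 in parental libraries. In every group the deeper libraries a and b were above the shallower c and d, and within either class both Tet1kd libraries were below all Tet2kd and parental ones. The log2 fold change of Pcna in Tet1kd was -0.41, which did not pass in the first deposited test (deposited adjusted p = 0.28) and passed in the second, whose adjusted p is listed as 0. limma without the depth class did not call Pcna in Tet1kd (adjusted p = 0.0942), and with the depth class as a block called it lower (adjusted p = 1.71e-09).

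RPA coats single-stranded DNA at the fork, and its 3 subunit genes did not move together in Tet1kd cells. Rpa1 and Rpa2 were lower and Rpa3 was higher. Rpa2 had 2905, 2799.6, 3641 and 3262 normalized reads in Tet1kd libraries, 3901, 3891, 4293 and 4434 in Tet2kd libraries and 4154, 4318, 5145 and 5043 in parental libraries (log2 fold change in Tet1kd -0.57, deposited adjusted p = 5.26e-05). Every Tet1kd library was below every parental one, while the Tet2kd and parental ranges overlapped across the depth classes. Within either class every Tet2kd library was below every parental one. Rpa2 in Tet2kd did not pass in the first deposited test (log2 fold change -0.18, deposited adjusted p = 0.449) or by limma without the depth class (adjusted p = 0.184). With the depth class as a block limma called it lower (adjusted p = 0.000496). Rpa1, the subunit with most of the DNA contacts, had 6216, 6175, 6856 and 6547 normalized reads in Tet1kd libraries and 7422, 7309.5, 7874 and 8007 in parental libraries, which did not overlap (log2 fold change -0.25, deposited adjusted p = 0.0127). Rpa3 had 1086, 967, 944 and 891 normalized reads in Tet1kd libraries, 1015, 959.7, 882 and 867 in Tet2kd libraries and 805, 821, 738 and 664 in parental libraries. Both knockdowns lay above the parental libraries without overlap. The log2 fold change of Rpa3 was 0.36 in Tet1kd (deposited adjusted p = 0.00177) and 0.30 in Tet2kd (deposited adjusted p = 0.0404). The Tet2kd call of Rpa3 was lost by limma without Tet2kd library a (adjusted p = 0.0659) and without parental library d (0.0645). Rpa3 also lies on chromosome 6, where its 32 neighbours had a median of -0.06 in Tet1kd.

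Fen1, the flap endonuclease that trims Okazaki fragments, was the only member lower in both knockdowns in the first deposited test. It had 2164, 2230.5, 2259 and 2355 normalized reads in Tet1kd libraries, 2695, 2693, 2965 and 2965 in Tet2kd libraries and 3421, 3463, 3445 and 3629.8 in parental libraries. The groups did not overlap, with means of 2252 ± 79.4, 2829 ± 157 and 3489.6 ± 95.1 (SD, n = 4 each). Fen1 had a log2 fold change of -0.63 in Tet1kd (SE 0.05 from limma, deposited adjusted p = 4.93e-12) and -0.30 in Tet2kd (SE 0.05 from limma, deposited adjusted p = 0.00397). Lig1, the ligase that seals the fragments, was lower in Tet1kd (-0.29, deposited adjusted p = 0.00286) with 5842, 5988, 6532 and 6249.9 normalized reads in Tet1kd libraries and 7162, 7139, 8012 and 7819 in parental libraries, which did not overlap. Rnaseh2a, the catalytic subunit of ribonuclease H2, did not pass (-0.13, deposited adjusted p = 0.545).

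**Figure D3:**
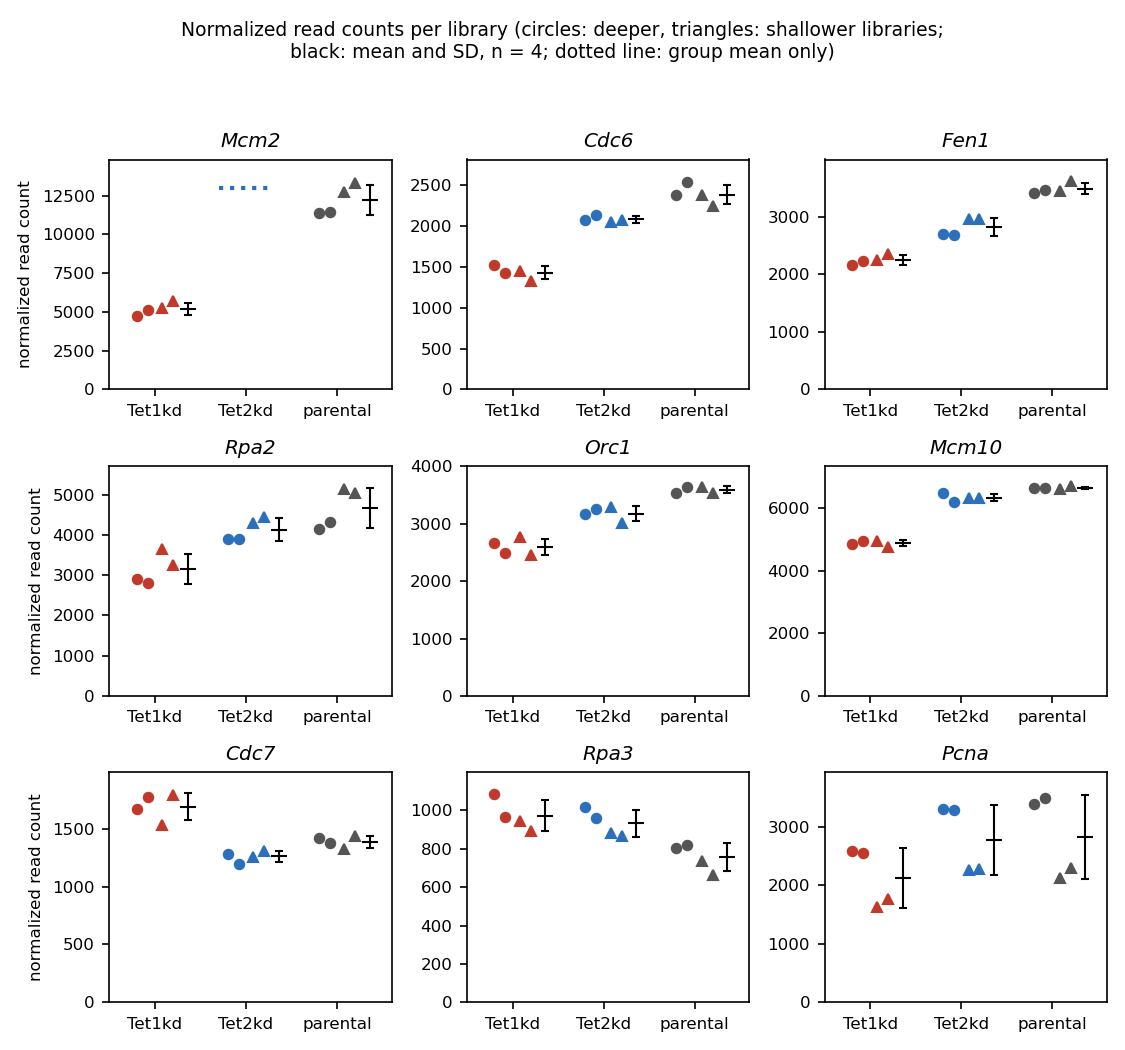
Normalized read counts per library of 9 replication genes in Tet1kd, Tet2kd and parental cells; circles are the deeper and triangles the shallower libraries, and black bars give the mean and SD (n = 4). The dotted line for Mcm2 in Tet2kd is the group mean alone; in Pcna the circles lie above the triangles in each group.

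Each of the 19 members called in Tet1kd whose reads were recovered in every needed library was also called by limma in the same direction, and stayed called when any 1 Tet1kd or parental library was left out. Mcm3, Mcm5 and Pold2 were called by limma with every candidate set of reads (adjusted p of at most 0.0438, 0.00327 and 0.0126). For Mcm4 the limma adjusted p ran from 5.76e-06 to 0.0994, so its call depended on the set taken. Of the 37 members it could fit in Tet1kd, limma called 7 higher without the depth class in the model. With the depth class as a block it called 11 higher, of the 35 members recovered in all 3 groups. Over all genes and both directions in Tet1kd, limma called 7846 without the block and 9239 with it. In Tet2kd the number of members called depended on the test. Of the 37 it could fit, limma called 7 (4 lower, 3 higher). With the depth class as a block it called 15 of 35 (10 lower, 5 higher), and the second deposited test called 16 of 43. Over all genes limma called 2869, limma with the block 5038 and the second deposited test 4171. The first deposited test called 1638 genes, so the rise was not particular to the members. Shares over all genes were not computed for these alternatives.

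The knockdowns were also compared directly with limma at an adjusted p of 0.05. This contrast does not use the parental means, and its spread was estimated over all 12 libraries. Of the 43 members 13 were lower in Tet1kd than in Tet2kd cells, 10 were higher, 16 did not pass, and for 4 (Mcm3, Mcm4, Mcm5 and Dbf4) the call depended on which candidate set of reads was taken. Of all 14408 genes fitted 25.2% were lower and 25.5% higher. The members' settled counts were near these shares, which were not matched for the members' high read counts. Cdc6 had a difference of -0.55 on the log2 scale (95% interval -0.66 to -0.43, adjusted p = 7.7e-07). Mcm10 differed by -0.37 (-0.44 to -0.30, adjusted p = 2.58e-07) and Rfc3 by -0.40 (-0.54 to -0.26, adjusted p = 0.000154). Fen1, lower in both knockdowns, was lower again in Tet1kd than in Tet2kd (-0.33, -0.43 to -0.22, adjusted p = 5.06e-05). Mcm2 had a difference of -1.33 to -1.30 over its candidate sets, with a limma adjusted p of at most 2.23e-07. Cdc7 was higher in Tet1kd by 0.42 (0.30 to 0.55, adjusted p = 2.78e-05) and Pole2 by 0.32 (0.18 to 0.45, adjusted p = 0.00075). The calls of Orc3, Gmnn, Cdc45, Gins2, Prim2, Rfc1 and Lig1 were each lost when some library was left out. For Rpa3 the difference was 0.06 (-0.12 to 0.24, adjusted p = 0.565), and for Pcna -0.39 (-0.81 to 0.03, adjusted p = 0.109).

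**Figure D4:**
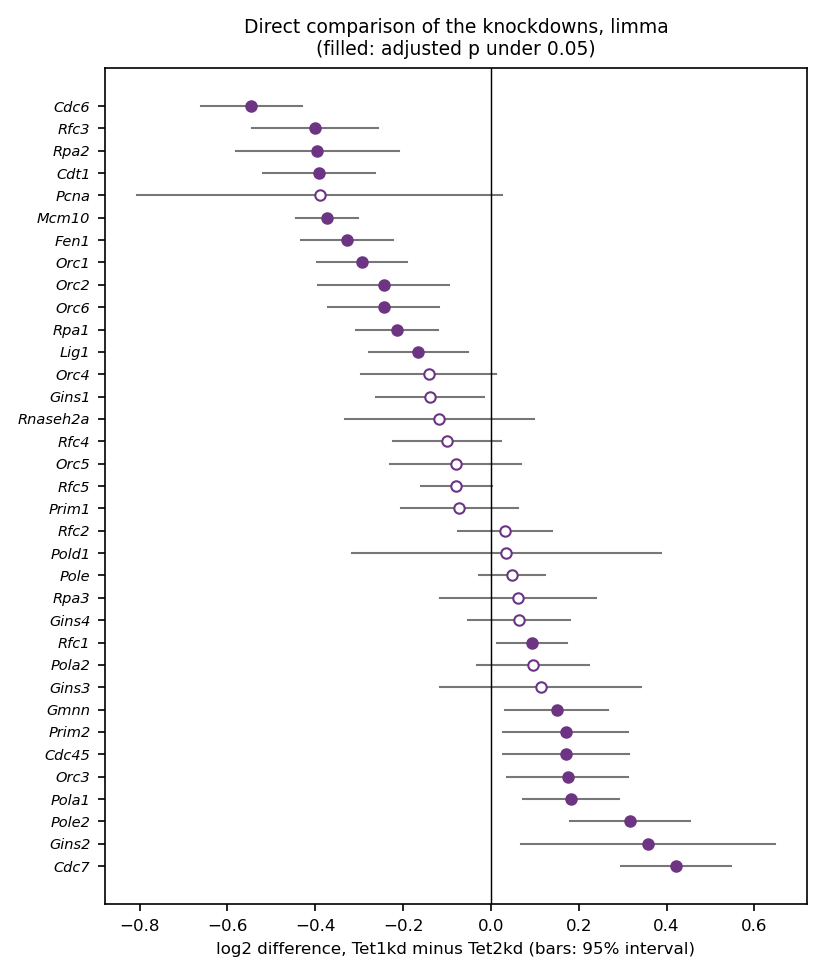
Log2 difference between Tet1kd and Tet2kd (Tet1kd minus Tet2kd) for the 35 members with reads recovered in all 12 libraries; points are limma estimates, bars 95% intervals and filled points an adjusted p under 0.05. Cdc6 lies lowest at -0.55 and Cdc7 highest at 0.42.

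The authors' exon tables divide the 43 genes into 1055 bins and test whether the share of a gene's reads in a bin differs. In Tet1kd 37 of 953 member bins tested were called (3.88%), against 2.56% of all 195843 bins. Of the 37, 29 were used less and 8 more, where 55.0% of all called bins were used less. In Tet2kd 53 of 951 were called (5.57%), against 2.45% of 193091 bins, with 33 used less and 20 more, where 56.2% of all called bins were used less. Among bins with a mean of at least 50 the shares were 5.78% of 571 member bins and 5.74% of all such bins in Tet1kd, and 8.93% of 549 member bins and 6.17% of all such bins in Tet2kd. So in Tet1kd the share of member bins was near the background at like depth. Called bins fell in 20 members in Tet1kd and 25 in Tet2kd, and 15 bins of 11 genes were called in both comparisons, which share the parental libraries.

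Bin 10 of the 19 bins of Pola2, the second subunit of polymerase alpha, stood out within its gene. It was used less in Tet1kd (deposited log2 ratio with the sign reversed -1.06, deposited adjusted p = 0.00229) and in Tet2kd (-1.18, adjusted p listed as 0). No other bin of Pola2 was called in Tet1kd, and bin 9 alone was called beside it in Tet2kd (0.20, deposited adjusted p = 0.00822). The gene as a whole did not pass in either comparison (log2 fold change 0.06 in Tet1kd and -0.04 in Tet2kd). Bin 24 of the 51 bins of Pola1 was used less in both (deposited adjusted p = 0.000203 in Tet1kd and 6.10e-05 in Tet2kd). Bins 22 and 23 of the 38 of Mcm10 were used less in both, and bin 13 of the 17 of Mcm3 was used less in both (deposited adjusted p = 8.60e-06 in Tet1kd and 2.76e-07 in Tet2kd). In Lig1, bins 38 and 39 of 44 were used less in Tet2kd (-0.35 and -0.65, deposited adjusted p = 3.47e-09 and 1.35e-07). Their ratios in Tet1kd had the same sign and were not called (-0.26 and -0.37, deposited adjusted p = 0.53 and 0.471). Sizes are on the deposited scale, which could not be set against fold changes of genes, and the tables give no coordinates for the bins.

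**Figure D5:**
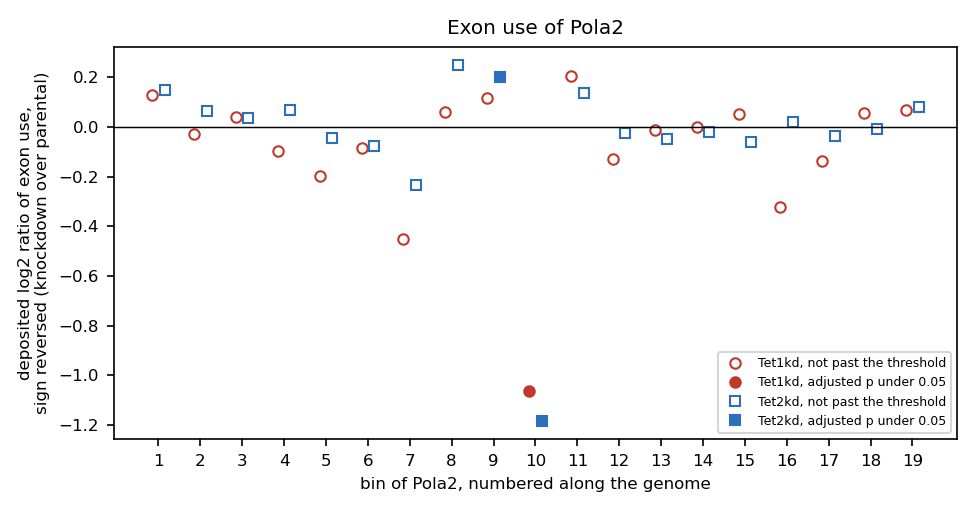
Deposited log2 ratio of exon use of the 19 bins of Pola2 with its sign reversed, so that values below 0 mean less use in the knockdown, for Tet1kd (circles) and Tet2kd (squares) over parental. Filled points had an adjusted p under 0.05; bin 10 is at -1.06 in Tet1kd and -1.18 in Tet2kd.

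Of 29 accessory replication genes tested 7 were lower and 8 higher in Tet1kd cells (median log2 fold change 0.01). Among all genes with a mean of at least 300, 25.2% were lower and 25.1% higher, so these counts are near the background. This and the lists below were not tested as sets. Pole4, a small subunit of polymerase epsilon, averaged 846 in Tet1kd cells and 1762 in parental cells (log2 fold change -1.06, deposited adjusted p = 1.09e-20), and Ticrr, which helps to activate origins, 5465 in Tet1kd cells and 9165 in parental cells (-0.75, deposited adjusted p = 6.54e-18). Mcm8, a relative of the replicative helicase that works in recombination, averaged 1456 in Tet1kd cells and 898 in parental cells (0.70, deposited adjusted p = 2.96e-11). Top2a, the topoisomerase that untangles replicated DNA, was also higher (0.39, deposited adjusted p = 1.70e-05). In Tet2kd 2 of the 29 were lower, Top1 (-0.43, deposited adjusted p = 8.70e-06) and Ssrp1 (-0.26, deposited adjusted p = 0.0243), and none was higher. Among all genes with a mean of at least 300, 6.21% were lower and 6.42% higher in Tet2kd.

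Of 18 genes of nucleotide supply 8 were lower and 2 higher in Tet1kd cells (median -0.18). Among all genes with a mean of at least 300, 25.2% were lower and 25.1% higher in Tet1kd. In Tet2kd these shares were 6.21% and 6.42%. Neither was matched to the read counts of the lists in this paragraph. Rrm2b, the ribonucleotide reductase subunit known as a p53 target, averaged 882 in Tet1kd cells and 177 in parental cells (2.32, deposited adjusted p = 7.72e-23), and in the other comparison 245 in Tet2kd cells and 162 in parental cells (0.59, deposited adjusted p = 0.00155). Nme1, a nucleoside diphosphate kinase, was lower in Tet1kd (-0.48, deposited adjusted p = 4.49e-07). In Tet2kd 3 of the 18 were lower, among them Dut (-0.34, deposited adjusted p = 0.00127) and Rrm1 (-0.30, deposited adjusted p = 0.00374), and 1 was higher. Of 10 chromatin assembly genes 5 were lower and 0 higher in Tet1kd (median -0.26), including the histone chaperone Nasp (-0.41, deposited adjusted p = 8.98e-06), and 0 of 10 passed in Tet2kd.

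Among 13 E2F and pocket protein genes 5 were lower and 2 higher in Tet1kd cells (median -0.07), and 2 were lower in Tet2kd. E2f3, an activating E2F, averaged 1612 in Tet1kd cells and 2712 in parental cells (-0.75, deposited adjusted p = 2.60e-15). E2f8, a repressing E2F, was lower as well (-0.45, deposited adjusted p = 2.27e-06), and Rbl1, a pocket protein, was higher (0.40, deposited adjusted p = 0.000498). Of 20 mitosis genes 3 were lower and 6 higher in Tet1kd (median 0.07), with Mad2l1, a spindle checkpoint gene, at 1481 in Tet1kd cells and 3117 in parental cells (-1.07, deposited adjusted p = 4.56e-09) and the cyclin gene Ccnb2 higher (0.45, deposited adjusted p = 8.65e-07). Mad2l1 and Pole4 lie on chromosome 6, as Mcm2 does. In Tet2kd 4 of the 20 mitosis genes were lower, among them Aurka (-0.44, deposited adjusted p = 5.80e-06), and none was higher. Beside these counts, 25.2% of all genes with a mean of at least 300 were lower and 25.1% higher in Tet1kd. In Tet2kd 6.21% were lower and 6.42% higher. The lists are short, and their counts were not tested against these shares.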

How the data were processed

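For each knockdown the deposited files are a table of genes and a table of exon bins, both against parental cells. TopHat2 (version 2.0.0), SAMtools (version 0.1.18), the builds mm9 and NCBIM37 and the authors' use of DESeq are named in the submitters' processing notes. No read counter and no annotation release are named there. Per the file headers, the gene tables hold group mean signal (normalized read count, reads divided by a size factor), the fold ratio, its log2 value and p-values with adjusted p-values of 2 tests. The exon tables hold, per the file headers, the bin's mean signal, a log2 ratio (parental over knockdown, printed here with the sign reversed), p-values with adjusted p-values and a dispersion score. The deposited adjusted p-value of the first test at 0.05 was the main test. No source states the terms of the second.

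Reads per library were recovered from the printed means, since a mean of 4 whole numbers divided by size factors takes few values. A set of reads was kept if it alone fitted within 60% of the mean, or otherwise within 20%, which leans to a small spread and held for 15 Tet1kd and 9 Tet2kd members. In Tet1kd these were Mcm2, Mcm7, Orc2, Orc3, Orc5, Cdt1, Mcm10, Pola1, Pold1, Pole, Rfc1, Rfc5, Rpa1, Rpa2 and Lig1. In Tet2kd they were Cdt1, Mcm10, Dbf4, Pold2, Pole, Rfc1, Rpa1, Rpa2 and Lig1. Their library values and limma results carry this lean. This gave all 43 members in parental libraries, 37 in Tet1kd and 37 in Tet2kd. Where parental reads from 1 table were compared with those from both tables, 41130 of 41131 answers were the same. Answers kept within 60% could hardly differ, because both searches used that limit and that printed mean. The comparison therefore mainly checks answers kept within 20%, and in parental libraries only. Library letters run by size factor; nothing ties them to numbered samples. Printed library values are on the scale of the Tet1kd table, with Tet2kd values multiplied by 1.09. limma (version 3.58.1, R version 4.3.3) was fitted on log2(normalized reads + 0.5) for genes with a mean of at least 10 over all 12 libraries with Benjamini-Hochberg adjustment; it was the main test for Tet1kd against Tet2kd and an alternative elsewhere. Both steps were tested on simulated data. Alternatives changed the test, threshold, filter, pseudocount, scaling or block, or left out a library. Gene order and symbols came from GENCODE vM21 (GRCm38), as did the positions used to pick the neighbours of Mcm2 and of the other members. That build differs from the builds named by the authors. All members may be named; of other lists the genes with the smallest adjusted p in each direction were. The members and lists were chosen with earlier results of these data known.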

Additional observations from a re-analysis of the deposited data

Results flagged for a closer look

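Library values of the members were checked for a library far from the other 3 of its group, in 117 groups of 4, and 3 stood apart. Chance flags about 1 in 20 groups. Orc3 in Tet2kd library d had 2226 normalized reads, where the other Tet2kd libraries had 2565 to 2626. Pole2 in Tet2kd library d had 857, where the others had 995 to 1018. Gmnn in parental library c had 1894, where the others had 1777 to 1791.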

How the results depend on the processing

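No paired analysis was possible because the recovered libraries carry no replicate numbers, and the depth classes were used as a block instead. Libraries of the same depth class in different groups deviated together (correlations of 0.38 to 0.59 over 10329 genes, and -0.54 to -0.38 across classes). Deviations from a mean cancel out, so the negative values partly mirror the positive ones. No member called in a comparison changed its direction under any alternative run, while some members near 0 that were called neither there nor under the alternative changed sign; of 1714 single-member values 1540 kept their side of the threshold, 119 passed it newly and 55 no longer did. In Tet1kd against parental, 10 members were higher in the second deposited test, 3 at an adjusted p of 0.01 and 11 by limma with the depth class as a block (7 by limma without it), beside 6 in the first deposited test. At 0.01, 22 of the 37 member bins in Tet1kd and 27 of the 53 in Tet2kd stayed called.

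In Tet2kd against parental the counts were 2 members (1 lower, 1 higher) and 1638 genes. The second deposited test gave 16 members (9 lower, 7 higher) and 4171 genes. An adjusted p of 0.01 gave 1 member, 0 higher, and 975 genes. limma gave 7 members (4 lower, 3 higher) and 2869 genes, with a pseudocount of 5 it gave 7 members (4 lower, 3 higher) and 2933 genes, and with the depth class as a block 15 members (10 lower, 5 higher) and 5038 genes. With each library left out in turn limma gave 3 to 8 members (2 to 5 lower, 0 to 3 higher) and 2275 to 2587 genes; the same fits gave 21 to 23 members in Tet1kd against parental (14 to 16 lower, 6 to 7 higher) and 7276 to 7469 genes. In Tet1kd against Tet2kd, over the 35 members with a single set of reads, 20 were called (11 lower, 9 higher), 5 were higher with no filter on low counts, and 15 to 19 (10 to 12 lower, 3 to 8 higher) were called with a library left out. Without the joined rows of Mcm7 and Orc5, an alternative chosen after seeing the data, 16 members were lower and 6 higher in Tet1kd and 1 lower and 1 higher in Tet2kd. Members with intervals that include 0 were not shown to be equal.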
